A study of Mus musculus with 6 samples.

Results

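Cassette exons whose length is a multiple of 3 nt can be left out of a transcript without moving the reading frame of what follows. The exons described here were the skipped exon events of the deposited splicing table with an exon of 52 to 250 nt and a length divisible by 3. Of the 40961 splicing events of 5 types in the table, 29134 were skipped exon events, and 9948 of these (34.1%) met the rule. They came from 8787 different exons in 5493 genes, with lengths from 54 to 249 nt and a median of 111 nt. The exons closest to them were the 14442 skipped exon events of the same length range that shift the frame. RNA had been taken from whole hippocampus of male wild-type C57BL/6 J mice after injection of adeno-associated virus into the CA1 area of both sides at 8 weeks of age. The 3 control libraries came from mice given control shRNA, and the 3 L-DL KD libraries from mice given shRNA against L-DL, which is the longer isoform of the RNA-binding protein hnRNP D-like. Both groups thus carried virus and an shRNA, the control virus was given at the higher titre, and the tissue also held uninfected cells. The labels describe the second group both as a knockdown and with a knockout sign.

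Exon skipping joins the exon before a cassette directly to the exon after it, while inclusion uses the pair of junctions that flank the cassette. When a fully coding cassette preserves the frame, both products can be translated, and the proteins differ by an internal segment. Some exons named below are only partly coding in the annotation. They are those of Ppfia4, Kifap3, Bclaf1 and Ipo4, the 117-nt exon of Epb41l3 and the 81-nt exon of Cbarp. A length divisible by 3 does not by itself make these an internal segment of the protein. A frame-shifting cassette usually brings in an early stop codon, and such transcripts are often degraded by nonsense-mediated decay. Neurons are known for a large programme of frame-preserving cassettes in synaptic receptors, adhesion proteins, ion channels and the cytoskeleton. Inclusion is given here as percent spliced in (PSI), the share of transcripts that hold the exon, written from 0 to 1 and corrected for the number of positions at which reads can support each form. ΔPSI is the mean of the L-DL KD libraries less the mean of the control libraries.

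The exons on which the results below turn can be read directly. The following were cut from GENCODE M21 transcripts (GRCm38, the build of the splicing table), and the capitals mark the last 3 bases of the exon, which belong to the 5′ splice site. Kcnip2 (chr19:45796279-45796332, minus strand) and Arhgef25 (chr10:127184392-127184469, minus strand) had the smallest p-values together with a Slc25a23 exon, Syt7 (chr19:10422785-10423012, plus strand) rose while the other exons past the adjusted threshold fell, Selenow (chr7:15920305-15920358, minus strand) had the most junction counts at the lower length limit, and Grin1 (chr2:25311343-25311405, minus strand) is the N1 cassette of an NMDA receptor subunit. Hnrnpdl (chr5:100036481-100036651, minus strand) is the cassette of the targeted gene itself. All 6 are coding in the annotation.
Kcnip2: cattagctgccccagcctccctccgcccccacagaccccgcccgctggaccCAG
Arhgef25: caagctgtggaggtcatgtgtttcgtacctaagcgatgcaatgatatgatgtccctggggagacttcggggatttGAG
Syt7: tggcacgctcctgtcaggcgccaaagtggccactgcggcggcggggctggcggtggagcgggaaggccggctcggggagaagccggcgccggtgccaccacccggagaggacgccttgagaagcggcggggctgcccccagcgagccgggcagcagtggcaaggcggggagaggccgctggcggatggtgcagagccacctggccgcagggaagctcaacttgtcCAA
Selenow: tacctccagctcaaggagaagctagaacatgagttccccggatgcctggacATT
Grin1: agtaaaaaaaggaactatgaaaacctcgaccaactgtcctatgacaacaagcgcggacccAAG
Hnrnpdl: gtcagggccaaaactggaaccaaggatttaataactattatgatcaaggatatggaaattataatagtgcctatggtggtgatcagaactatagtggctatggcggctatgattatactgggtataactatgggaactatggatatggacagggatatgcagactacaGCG

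Related genes that carry the same cassette are shown next, because their exons can be compared base by base. In these lines the capitals mark positions at which the exons of a family are not all alike. Clathrin light chains A and B each carry a neuronal insert, at chr4:44030215-44030268 (Clta, plus strand) and chr13:54597026-54597079 (Cltb, minus strand).
Clta: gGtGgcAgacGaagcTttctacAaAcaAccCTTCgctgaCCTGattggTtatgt
Cltb: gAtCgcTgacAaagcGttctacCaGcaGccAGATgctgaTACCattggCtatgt
The muscleblind-like splicing factors share an exon that helps to place the protein in the nucleus, at chr3:60614683-60614736 (Mbnl1, plus strand) and chr14:120395712-120395765 (Mbnl2, plus strand).
Mbnl1: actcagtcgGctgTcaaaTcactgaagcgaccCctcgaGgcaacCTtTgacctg
Mbnl2: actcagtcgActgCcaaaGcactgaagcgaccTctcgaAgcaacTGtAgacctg
Clta and Cltb agreed at 37 of 54 positions, and Mbnl1 and Mbnl2 at 46 of 54.

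The splicing table held 6760349 to 7939931 junction counts per library, of which 1880270 to 2205702 belonged to the frame-preserving exons. Gene counts totalled 16052529 to 17913064 per library. Hnrnpdl, the targeted gene, was counted 2862, 3120 and 2689 times in control and 3939, 2680 and 2904 times in the libraries labelled as L-DL KD, which gave a log2 fold change of 0.03 (SE 0.12, adjusted p = 0.898 in edgeR). The gene total did not separate the groups, and it cannot tell the long isoform from the other transcripts of the gene. The study assessed its knockdown on the L-DL protein, by immunoblotting of hippocampus, and describes reduced L-DL in these mice. Cell type markers did separate them. Of 12 neuronal markers 10 were lower and 1 was higher in L-DL KD, with summed levels of 6079 to 7094 CPM (counts scaled to the size of the library) against 9969 to 10547 in control. All 12 microglial markers were higher, with sums of 3018 to 3931 CPM against 1440 to 1799. Of 12 markers each, 7 were lower and 2 higher for hippocampal neurons, 4 lower and 2 higher for astrocytes, 1 lower and 2 higher for oligodendrocytes, 4 higher and none lower for endothelium, and 5 higher and none lower for the interferon response. The summed ranges of the groups overlapped for hippocampal neurons (1316 to 1353 CPM in control, 1147 to 1394 in L-DL KD), oligodendrocytes (8472 to 9072 and 7224 to 10615) and the interferon response (513 to 751 and 614 to 1106), and they did not for astrocytes (8816 to 8935 and 7008 to 8328) and endothelium (390 to 427 and 483 to 582). No listed marker was at 0 in all libraries. Of all 17621 genes tested, 15.6% were higher and 15.0% lower in L-DL KD at adjusted p under 0.05 in edgeR. In whole tissue, fewer cells of a type and less RNA per cell cannot be told apart, and the part of these shifts in the PSI values was not tested. Nothing in the labels says how the libraries relate to animals, so p-values measure the spread between these libraries.

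Most of the frame-preserving exons were too rarely skipped, or too lowly covered, for a test. Tests were run on 3815 of the 9948 events, covering 3501 exons in 2547 genes. The other 6133 events had a mean of under 20 junction counts per library (1801), under 1 skipping count (4152) or under 1 inclusion count (180). The tested events had a median of 100.3 junction counts per library. With the event of most counts taken for each exon, 3447 exons could be described. Their mean PSI was above 0.95 for 1173 (34.0%), between 0.05 and 0.95 for 1953 (56.7%) and below 0.05 for 321 (9.31%). Among 4417 frame-shifting exons treated alike, 43.4% lay above 0.95 and 46.1% in the middle range. Coding sequence filled 77.9% of the annotated frame-preserving exons and 67.7% of the frame-shifting exons. The junction that skips the exon was itself annotated for 67.0% and 57.9%. In both sets the last exonic base was G in most exons (78.1% and 77.2%), and the median GC content was 51.0% and 50.2%. Of the genes, 1883 had 1 tested frame-preserving exon and 640 had several, with 9 at most.

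Inclusion moved downward more often than upward. Of the tested events, 56.1% (95% Wilson interval 54.5 to 57.7, which treats events as independent) had lower PSI odds in L-DL KD, with a median ΔPSI of -0.00431 and a median absolute ΔPSI of 0.0311. Leaving out 1 library in turn gave 53.9 to 57.9%, so the interval does not cover the spread between libraries. The share was 57.1% over all 10590 skipped exon events, 54.6% over the frame-shifting exons and 52.6% over all 18829 events, so it was near that of skipped exons in general. By level, 59.4% of the exons above a PSI of 0.95 and 55.9% of those in the middle range were lower in L-DL KD, against 42.4% of those below 0.05. The frame-shifting exons had a like order, with 58.7%, 52.5% and 49.1%, and the differences by level were not tested. Libraries of the groups did not overlap in PSI for 842 of the tested events (22.1%). The share was 20.6% of skipped exon events, 18.4% of all events and 16.03% of the frame-shifting ones. In 14.0% the L-DL KD libraries all lay below the control libraries, and in 8.05% they all lay above. These shares were 13.8% and 6.76% over all skipped exon events, and 9.99% and 6.04% over the frame-shifting ones.

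A comparison over libraries was made for the exons of the middle range. The median PSI of the 1953 frame-preserving exons was 0.667, 0.654 and 0.650 in the control libraries and 0.628, 0.622 and 0.628 in the L-DL KD libraries, and the groups did not overlap. The means were 0.657 ± 0.00851 and 0.626 ± 0.00341 (SD, n = 3), a difference of -0.0310. For the 2037 frame-shifting exons the medians were 0.813, 0.798 and 0.810 in control and 0.810, 0.789 and 0.794 in L-DL KD, a difference of -0.00912 between group means with overlapping libraries (two-sided exact permutation p = 0.2). The gap between both kinds of exon in the same library was -0.146, -0.144 and -0.159 in control and -0.182, -0.167 and -0.166 in L-DL KD. It thus widened in L-DL KD, with a change of -0.0219 between group means, and the two-sided exact permutation p was 0.1, the smallest that 3 libraries against 3 can give, so a p under 0.05 was out of reach. Taken as a mean over exons, the change was -0.00748. Both kinds of exon started from different control levels (0.657 and 0.807). An equal change in odds moves PSI by different amounts at different levels. Over all tested events the median log2 odds change was -0.189 for frame-preserving, -0.158 for frame-shifting and -0.224 for all skipped exon events. Whether the widening depends on the frame was not tested.

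**Figure D1:**
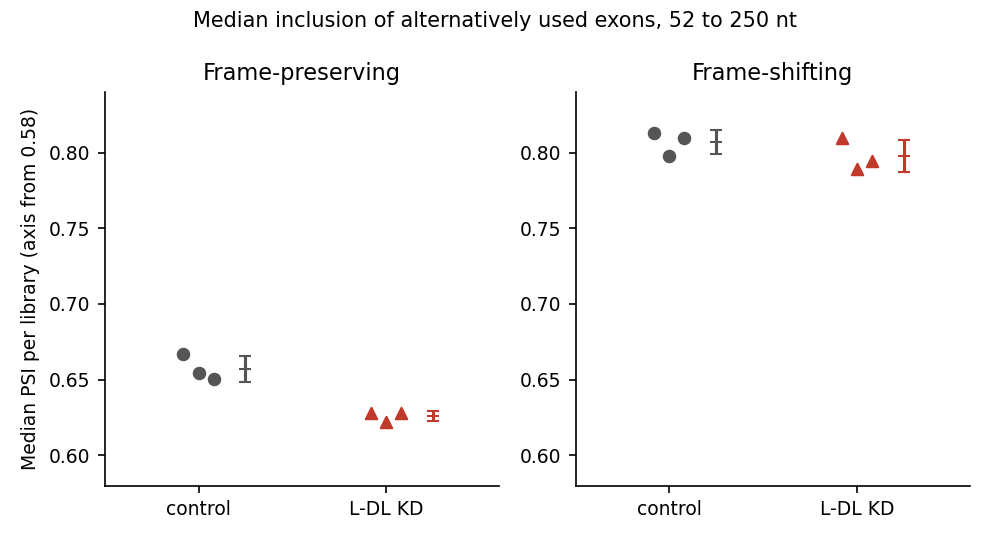
Median PSI over exons of 52 to 250 nt with a mean PSI from 0.05 to 0.95, for frame-preserving (left) and frame-shifting exons (right). Each point is 1 library, dashes and bars give the mean and SD of 3 libraries, and the vertical axis starts at 0.58. The L-DL KD points lie below all control points on the left and overlap them on the right.

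The test per exon called few of them. At an adjusted p under 0.05 (edgeR, Benjamini-Hochberg over all 18829 events), 9 frame-preserving events were called, 8 with lower and 1 with higher inclusion in L-DL KD. These are 0.236% of those tested, against 0.255% of all events, 0.349% of skipped exon events and 0.251% of the frame-shifting ones. At an unadjusted p under 0.001, the threshold the study set for its splicing events, 45 exons of 42 genes were called (1.18%, against 0.977% of all events). Among skipped exon events the share was 1.43%, and among the frame-shifting ones 0.794%. Of the 45 exons 33 were lower (0.865%, against 0.738% of all events) and 12 were higher (0.315%, against 0.239%). The libraries of the groups were apart in all 45. The shares called thus lay near those of all events, and below those of skipped exon events in general. The call also depended on which events shared their estimate of the spread: with skipped exon events alone in the fit, 8 of the 45 stayed below 0.001 and none passed the adjusted threshold (498 events at an unadjusted p under 0.05, against 680). Scaling each form of each library on its own turned the split at p under 0.001 from 33 lower and 12 higher into 47 lower and 8 higher, with a shift of -0.10 in the median log2 odds change of all events.

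**Figure D2:**
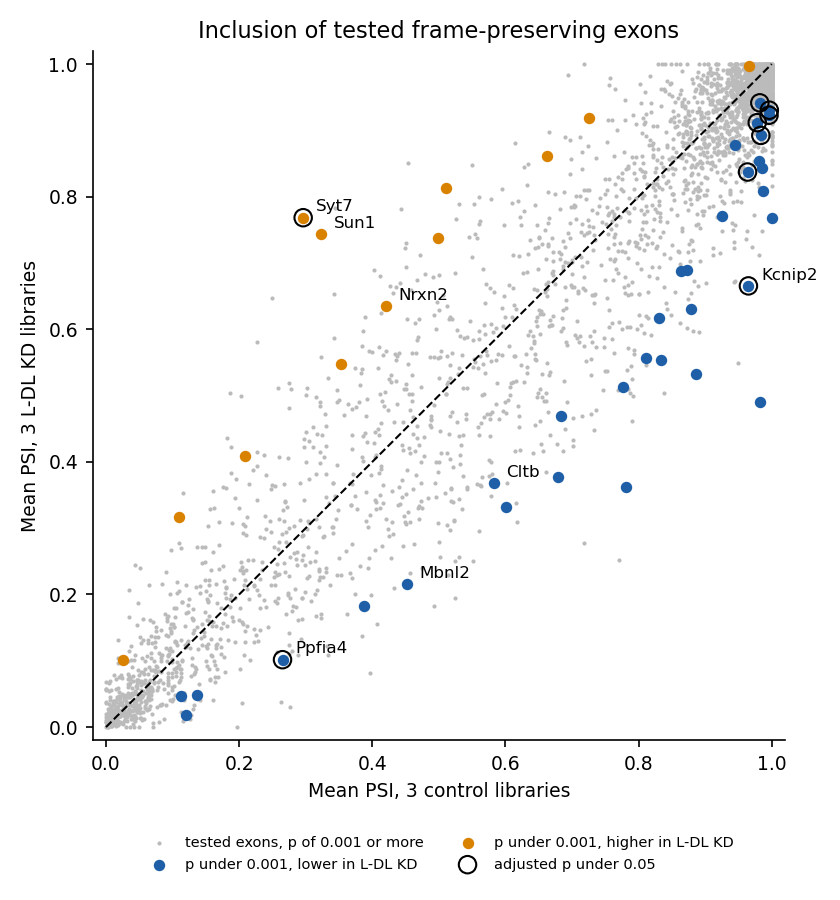
Mean PSI of 3 control libraries (horizontal) against mean PSI of 3 L-DL KD libraries (vertical) for 3447 tested frame-preserving exons. Blue points are the 33 exons lower and orange points the 12 exons higher in L-DL KD at p under 0.001, black circles mark the 9 at adjusted p under 0.05, and the dashed line marks equal PSI.

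Among the 9 exons past the adjusted threshold, that of Syt7 rose and the largest fall was in Kcnip2. Syt7 encodes synaptotagmin-7, a calcium sensor of synaptic vesicle release and replenishment, and its 228-nt exon had PSI values of 0.277, 0.326 and 0.286 in the control libraries and 0.659, 0.796 and 0.849 in the L-DL KD libraries. Every L-DL KD library lay far above every control library, and the mean rose from 0.296 ± 0.0262 to 0.768 ± 0.0979 (SD, n = 3), a log2 odds change of 2.94 (SE 0.41, adjusted p = 0.0153 in edgeR). The Syt7 gene total was lower in L-DL KD, at 256 CPM against 450 (log2 fold change -0.82, adjusted p = 0.00157 in edgeR). Kcnip2 encodes KChIP2, an accessory subunit of Kv4 potassium channels. Its 54-nt exon had PSI values of 0.938, 0.982 and 0.975 in control and 0.702, 0.669 and 0.625 in L-DL KD. It was included in nearly all control transcripts and fell by 0.300 in PSI (log2 odds change -3.79, SE 0.45, adjusted p = 0.00977 in edgeR), with a gene total of 243 CPM in control and 224 in L-DL KD (adjusted p = 0.211).

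Ppfia4 encodes liprin-alpha-4, a scaffold of the presynaptic active zone, and its 111-nt exon was the only other of the 9 with a low PSI in control. The values were 0.240, 0.284 and 0.272 in control and 0.102, 0.0871 and 0.116 in L-DL KD. They did not overlap and fell by 0.164 on average, but the adjusted p of 0.0497 in edgeR lay at the threshold. This gene's total was higher in L-DL KD (188 against 134 CPM, adjusted p = 0.00636). Over the 8 other fits to all 6 libraries, Ppfia4 passed the adjusted threshold in 4, Arhgef25 in 7 and each of the other 7 exons in 6.

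The remaining 6 exons were close to constitutive in control, with mean PSI values from 0.964 to 0.996, and fell to between 0.837 and 0.941. B4galnt1, a glycosyltransferase of ganglioside synthesis, had PSI values of 0.964, 0.979 and 0.948 at its 99-nt exon in control and 0.791, 0.862 and 0.858 in L-DL KD (adjusted p = 0.0377 in edgeR). Slc25a23, a mitochondrial ATP-Mg/phosphate carrier, went from 0.986, 0.977 and 0.988 to 0.911, 0.872 and 0.893 at a 153-nt exon (adjusted p = 0.00977). Arhgef25, a guanine nucleotide exchange factor for small GTPases, had values of 0.998, 0.994 and 0.995 at its 78-nt exon in control and 0.897, 0.939 and 0.932 in L-DL KD (adjusted p = 0.00977). In each of these exons every L-DL KD library showed more skipping than any control library. Eif4g2, a translation initiation factor, had 0.985, 0.965 and 0.984 in control and 0.903, 0.918 and 0.914 in L-DL KD at a 114-nt exon (adjusted p = 0.0213). Supt5, a transcription elongation factor, moved from 1, 0.992 and 0.997 to 0.917, 0.937 and 0.937 at a 159-nt exon (adjusted p = 0.0157). The 54-nt exon of Selenow, a small selenoprotein, had the deepest coverage of the 9, with 4515 to 7055 junction counts per library, and the smallest fall, from 0.987, 0.980 and 0.980 to 0.938, 0.952 and 0.935 (adjusted p = 0.0161). For 5 of these 6 exons, all but that of Eif4g2, the skipping junction was not in the annotation.

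**Figure D3:**
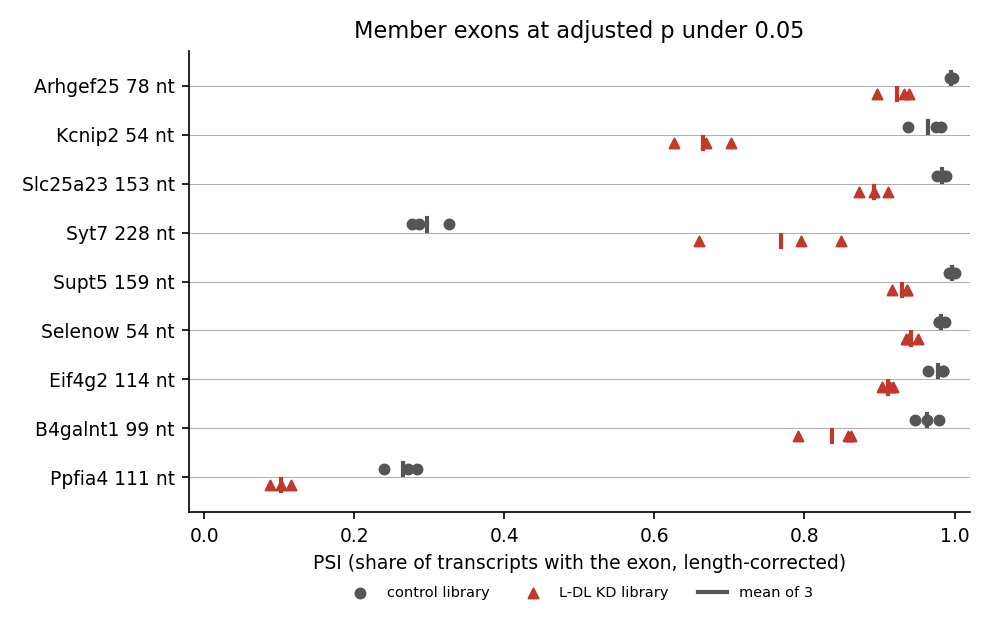
PSI of the 9 frame-preserving exons at adjusted p under 0.05, ordered by adjusted p, with a circle for each of 3 control libraries, a triangle for each of 3 L-DL KD libraries and a bar at each mean. The groups are apart in every row; Syt7 lies higher in L-DL KD and the other 8 lie lower.

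Of the exons past the unadjusted threshold only, those with the largest ΔPSI were of several kinds. The values that follow have adjusted p-values between 0.0553 and 0.0974 in edgeR. The 111-nt exon of Sun1, a nuclear envelope protein that binds the cytoskeleton, had PSI values of 0.313, 0.324 and 0.332 in control and 0.754, 0.638 and 0.838 in L-DL KD (adjusted p = 0.0953). The groups were far apart, on 43 to 90 junction counts per library. The 108-nt exon of Ehbp1, an endocytic adaptor, showed 0.826, 0.941 and 0.893 against 0.636, 0.463 and 0.501 (adjusted p = 0.0936). Cadps, a priming factor of dense-core vesicles, had 0.617, 0.627 and 0.557 in control at its 147-nt exon and 0.401, 0.319 and 0.275 in L-DL KD (adjusted p = 0.0685). Slmap, a membrane-anchored protein, had a mean of 0.833 in control and 0.553 in L-DL KD at a 123-nt exon (ΔPSI -0.280). R3hdm2, which carries an RNA-binding R3H domain, had 0.777 and 0.513 at a 102-nt exon (ΔPSI -0.264). In Cbarp, a regulator of voltage-gated calcium channels, an 81-nt exon had 0.679 and 0.378 (ΔPSI -0.301), and an overlapping 54-nt exon that begins at the same base and shares its reads had 0.811 and 0.557. The 93-nt exon of Actn2, an actin-crosslinking alpha-actinin, had the largest difference of all (0.982 and 0.490), on only 6 to 36 junction counts per library.

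Higher inclusion at this threshold was seen in fewer exons. Ube2j1, a ubiquitin-conjugating enzyme of the endoplasmic reticulum, had mean PSI values of 0.499 and 0.737 at a 120-nt exon (adjusted p = 0.0781). Bclaf1, a transcription-associated protein, had 0.109 and 0.317 at a 162-nt exon (adjusted p = 0.0553), and Atp6v1h, a subunit of the vacuolar proton pump, had 0.209 and 0.408 at a 54-nt exon (adjusted p = 0.0765). All 3 exons had groups that did not overlap. In Mycbp2, a large neuronal ubiquitin ligase, neighbouring exons differed in direction: exon 53 of Mycbp2-201 (75 nt) had 0.690, 0.779 and 0.872 in control and 0.444, 0.367 and 0.278 in L-DL KD, while exon 54 (225 nt) had 0.536, 0.475 and 0.523 against 0.782, 0.831 and 0.827.

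Exons of well-known function were read from a list of 26 cassettes, of which 23 had an event and 22 passed the filter for a test. The exons described next were not past the adjusted threshold. The splice site 4 exons of Nrxn2 and Nrxn3, which encode presynaptic adhesion proteins whose partners depend on this segment, lay higher in every L-DL KD library than in any control library. Nrxn2 had PSI values of 0.418, 0.432 and 0.412 in control and 0.566, 0.648 and 0.689 in L-DL KD (adjusted p = 0.0781 in edgeR). Nrxn3 had 0.468, 0.437 and 0.448 against 0.767, 0.778 and 0.643 (adjusted p = 0.130). The Nrxn3 gene total was lower in L-DL KD (log2 fold change -0.79, adjusted p = 0.0136), and for Nrxn2 the log2 fold change was -0.10 (adjusted p = 0.324).

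The neuronal inserts of the clathrin light chains, coat proteins of endocytic vesicles, lay lower in L-DL KD. Cltb had 0.554, 0.588 and 0.604 in control and 0.394, 0.377 and 0.331 in L-DL KD (ΔPSI -0.215, adjusted p = 0.0516 in edgeR). Clta had 0.322, 0.283 and 0.320 against 0.200, 0.213 and 0.158 (ΔPSI -0.118, adjusted p = 0.140). In both genes the totals were higher in L-DL KD, by 0.44 (adjusted p = 0.00216) and 0.32 (adjusted p = 0.00838) on the log2 scale. The nuclear localisation exon of Mbnl2 had 0.450, 0.466 and 0.439 in control and 0.259, 0.230 and 0.156 in L-DL KD (ΔPSI -0.236, adjusted p = 0.0802 in edgeR). The matching Mbnl1 exon had 0.191, 0.235 and 0.250 against 0.116, 0.192 and 0.107, with groups that overlapped (adjusted p = 0.423).

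Grin1 encodes GluN1, the obligatory subunit of NMDA receptors, and both of its classical cassettes lay lower. The N1 cassette of 63 nt had PSI values of 0.114, 0.167 and 0.130 in control and 0.0611, 0.0534 and 0.0324 in L-DL KD (adjusted p = 0.101 in edgeR). The C1 cassette of 111 nt, in the cytoplasmic tail, had 0.523, 0.551 and 0.554 against 0.364, 0.384 and 0.339 (adjusted p = 0.106). Other neuronal cassettes differed less from their spread. The additional microtubule-binding repeat of Map2 had means of 0.123 ± 0.0232 and 0.185 ± 0.0224 (adjusted p = 0.352), and the KH2 insert of Fmr1 had 0.187 ± 0.0965 and 0.384 ± 0.114 (adjusted p = 0.368). The N-terminal inserts of tau (Mapt) had 0.158 and 0.133 at the exon nearer the start and 0.565 and 0.501 at the other, with overlapping groups. The cytoplasmic insert of the reelin receptor Lrp8 (0.700 and 0.704) and exon 2 of the myelin protein Mbp (0.0996 and 0.103) differed by less than the spread within a group. The same was true of the second repeat exon of Mapt (0.988 and 0.993), and the insert of Cacna1b, on 13 to 37 counts per library, had means of 0.075 and 0.150 with overlapping groups. The 72-nt exon of Nova1, a neuronal splicing factor, had 0.949 and 0.987 (adjusted p = 0.428).

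Cassettes in the hnRNP family, whose members bind RNA and regulate splicing, were also in the list. The 171-nt exon of Hnrnpdl, which encodes a tyrosine- and glycine-rich segment near the C terminus, had 0.977, 0.956 and 0.919 in control and 0.978, 1 and 0.993 in L-DL KD. The libraries labelled L-DL KD all lay above the highest control library, by 0.978 against 0.977 for the lowest of them (adjusted p = 0.249 in edgeR). Hnrnpd, a close relative of Hnrnpdl, had means of 0.708 and 0.612 at its 57-nt exon and 0.663 and 0.672 at its 147-nt exon, with overlapping groups in both. Hnrnpab had 0.287 ± 0.014 and 0.265 ± 0.0108 at a 141-nt exon (adjusted p = 0.836). The 156-nt exon of Hnrnpa1 was included in nearly every read (means of 1 and 0.999) and was not tested.

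**Figure D4:**
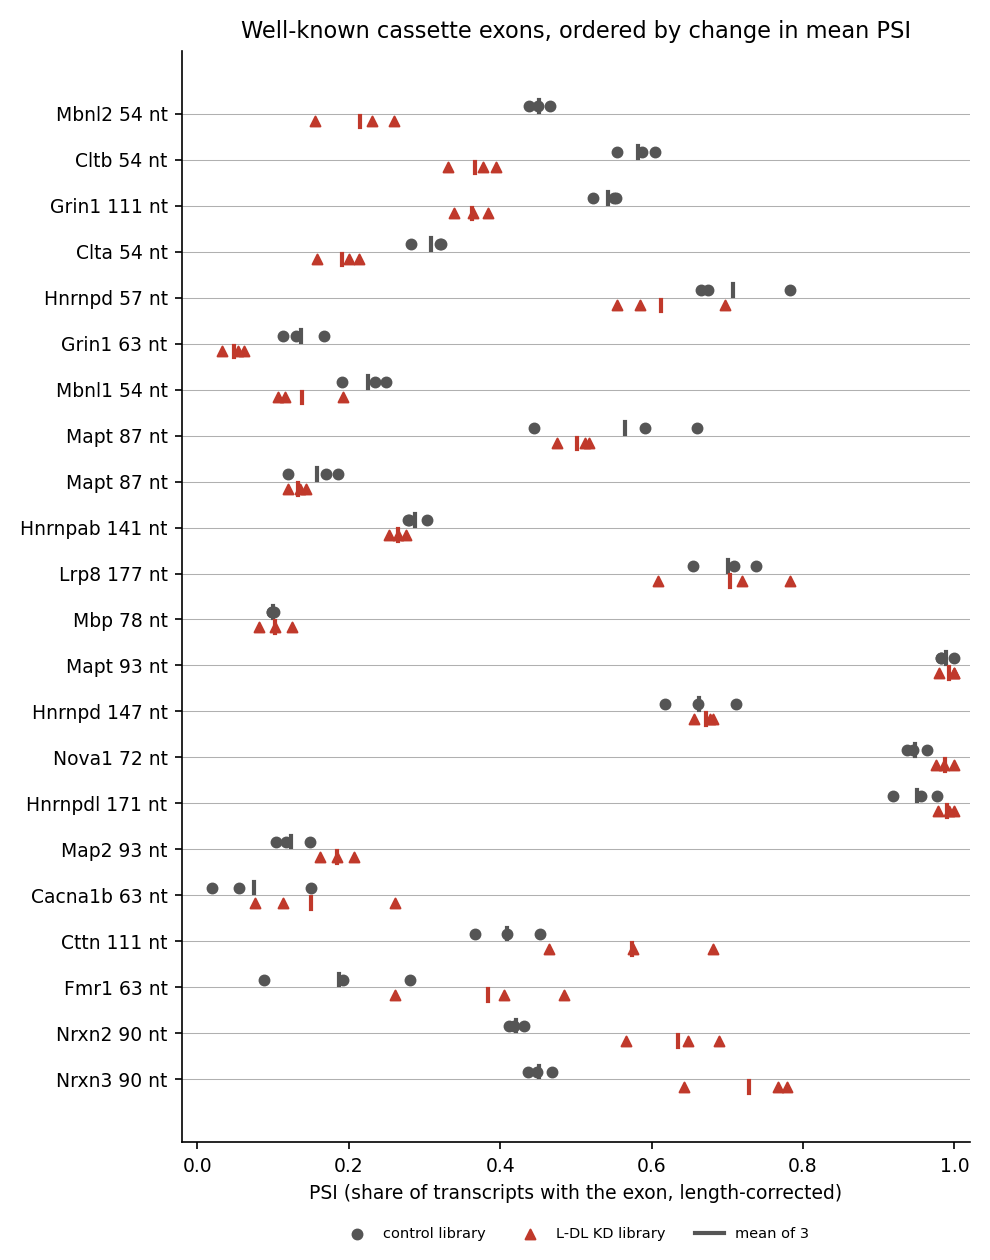
PSI of 22 exons of known function, ordered from the largest fall to the largest rise in mean PSI, with circles for 3 control libraries, triangles for 3 L-DL KD libraries and a bar at each mean. Mbnl2, Cltb and Grin1 lie at the top with lower values in L-DL KD, and the Nrxn2 and Nrxn3 exons lie at the bottom with higher values.

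The genes the study assayed by RT-PCR held 25 tested frame-preserving exons in 11 genes. The study chose these genes on mice of the same kind, so they are not independent evidence of a direction. Exons were taken by gene, whether or not the study assayed that exon. None passed the adjusted threshold, 1 passed p under 0.001, and 3 lower and 2 higher had p under 0.05, which is 20% of them against 18.1% of all 3447 tested exons. Epb41l3, a protein 4.1 that ties membrane proteins to spectrin and actin, held the exon that passed. Its 117-nt exon had 0.864, 0.857 and 0.871 in control and 0.646, 0.720 and 0.698 in L-DL KD (adjusted p = 0.0668 in edgeR), and a 123-nt exon had 0.793 and 0.563 (adjusted p = 0.127). A 75-nt exon of the same gene lay in the opposite direction, at 0.181 and 0.435 (adjusted p = 0.129), and the Epb41l3 total was lower in L-DL KD (log2 fold change -0.91, adjusted p = 0.000647). The 162-nt exon of Chl1, a cell adhesion protein of the L1 family, had 0.767, 0.643 and 0.571 in control and 0.371, 0.415 and 0.370 in L-DL KD (adjusted p = 0.130).

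In Cttn, an actin-binding protein of dendritic spines, neighbouring repeat exons of 111 nt differed in direction: the exon at chr7:144452027-144452137 had 0.408, 0.367 and 0.453 in control and 0.465, 0.575 and 0.681 in L-DL KD (adjusted p = 0.299), and the exon at chr7:144450978-144451088 had means of 0.208 and 0.128 (adjusted p = 0.388). Git2, a GTPase-activating scaffold, had 0.549 and 0.710 at a 90-nt exon with groups apart (adjusted p = 0.400) and overlapping groups at a 150-nt and a 105-nt exon that begin at the same base. Cask, a synaptic scaffold kinase, had 0.442 ± 0.0862 and 0.336 ± 0.0656 at a 69-nt exon (adjusted p = 0.709). Both tested exons of the adhesion protein Cadm1 and the 165-nt exon of Dlg4, which encodes the scaffold PSD-95, had overlapping groups and adjusted p-values from 0.877 to 0.899.

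Gene groups were lists of chosen genes that do not hold every gene of a kind, and were read over all their tested frame-preserving exons. Arhgef25, Sik3, Supt5, Bclaf1 and Srsf9 were not in the list that matches their description here. The counts and rankings that follow hold within the lists. Among all 3447 such exons, 18.1% had p under 0.05 (409 lower and 215 higher), 55.99% were lower in L-DL KD, and the median ΔPSI was -0.00414. No test of a difference between gene groups was made. Actin and spectrin genes held 100 tested exons in 37 genes, of which 3 were lower and 1 higher at p under 0.001, and 20 were lower and 12 higher at p under 0.05 (32.0%). Epb41l3 and Abi2, a subunit of the WAVE complex that drives actin branching (0.830 and 0.617 at a 183-nt exon, adjusted p = 0.0889), had the smallest p-values there. Microtubule and motor genes held 55 exons, with 2 lower at p under 0.001 and 27.3% at p under 0.05. These were the 105-nt exon of Clip2, a microtubule plus-end protein (0.882, 0.879 and 0.877 against 0.633, 0.545 and 0.714), and the 66-nt exon of Kifap3, the cargo adaptor of kinesin-2 (0.872 and 0.689), whose gene total was lower (log2 fold change -1.46, adjusted p = 0.000351).

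Vesicle and endocytosis genes held 64 tested exons, with 2 past the adjusted threshold (Syt7 and Ppfia4), 4 lower and 1 higher at p under 0.001, and 28.1% at p under 0.05. Ion channel genes held 36, with Kcnip2 as the exon past the adjusted threshold and 7 lower and none higher at p under 0.05 (19.4%). Receptor and scaffold genes held 32 exons, of which 1, the Grin1 N1 cassette, passed p under 0.001, and 18.75% had p under 0.05. Adhesion genes held 38, with 21.1% at p under 0.05 and 2 higher at p under 0.001 (Nrxn2 and a 99-nt exon of Adgrb2, an adhesion receptor, with 0.353 and 0.548). No call at p under 0.001 was made among the 49 listed exons of kinases and phosphatases or the 50 of GTPase regulators. These lists left out Sik3 and Arhgef25, whose exons were called. At p under 0.05, 13 of the listed exons of kinases and phosphatases were lower and none higher (26.5%). Within the list the smallest p-values were those of Pip5k1c, which makes a membrane phosphoinositide (0.0390 and 0.0125 at a 78-nt exon, adjusted p = 0.134), and Ptk2b, a calcium-activated tyrosine kinase (0.962 and 0.909 at a 126-nt exon, adjusted p = 0.142). The Sik3 exon, outside the list, was higher with a smaller p-value. Among the listed GTPase regulators the smallest p-values were those of Sipa1l2 (0.811 and 0.620) and Agap2 (0.903 and 0.828). The Arhgef25 exon, outside the list, was lower with a smaller p-value. Listed RNA splicing genes held 64 exons, with 2 lower at p under 0.001 (Mbnl2 and R3hdm2) and 28.1% at p under 0.05. That list left out Srsf9, which was also lower at p under 0.001. Listed chromatin and transcription genes held 54 exons, with 25.9% at p under 0.05. Their smallest p-values were those of a 102-nt exon of Ehmt2, a histone methyltransferase (0.925 and 0.771, adjusted p = 0.0553), and a 54-nt exon of Atxn2 (0.752 and 0.537). The exons of Supt5 and Bclaf1, outside the list, had smaller p-values than that of Ehmt2.

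Other exons past p under 0.001 lay in genes outside these groups or were not among their leading members. App, the amyloid precursor protein, had 0.942, 0.955 and 0.938 in control and 0.903, 0.887 and 0.843 in L-DL KD at a 54-nt exon with 2057 to 3157 junction counts per library (adjusted p = 0.0838 in edgeR). Srsf9, a splicing factor of the SR family, had 0.388 and 0.182 at a 90-nt exon of its 3′ UTR. Rnf112, a ubiquitin ligase of the brain, had 0.683 and 0.470, and Sik3, a kinase related to AMPK, had 0.726 and 0.919 at a 144-nt exon. Near-constitutive exons with skipping in L-DL KD included those of Aldh6a1 (0.981 and 0.854), Fads1 (0.985 and 0.843) and Rnf25 (0.987 and 0.809), and Ipo4 had no skipping count in any control library and PSI values of 0.727, 0.823 and 0.752 in L-DL KD on 27 to 68 counts. In the reverse direction, Idh3b had 0.966 and 0.997 and the 5′ UTR exon of Tprkb had 0.0252 and 0.101.

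Features of the exons at p under 0.001 were read beside those of all tested exons. The 33 exons lower in L-DL KD at p under 0.001 had a median length of 93.0 nt, a median GC content of 51.9% and median flanking introns of 1583 nt upstream and 577 nt downstream. The corresponding medians of the 12 higher exons were 115.5 nt, 50.8%, 1357 nt and 2675 nt, and those of all 3447 tested exons were 108.0 nt, 51.0%, 1876 nt and 1891 nt. The exon ended in CAG in 30.3% of the lower exons, 8.33% of the higher and 23.3% of all. The skipping junction was annotated for 23 of the 33 and 10 of the 12. Median control PSI was 0.872 for the lower, 0.387 for the higher and 0.868 for all tested exons, and the called exons had more counts (medians of 317.8 and 267.5 per library, against 104.7). These are descriptions of exons picked by their p-values and carry no test.

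Exons on either side of the length limits are given as a description of where the rule cuts. At 54 nt, just inside the lower limit, 96 exons were tested, and the deepest was the Selenow exon above. At 51 nt, just outside, 68 were tested, and the deepest was a Qdpr exon with PSI values of 0, 0.00266 and 0 in control and 0, 0.00519 and 0.00125 in L-DL KD. At 249 nt, just inside the upper limit, 10 were tested, with an H2-Aa exon at 0.999, 1 and 0.999 in control and 0.987, 1 and 1 in L-DL KD. At 252 nt, just outside, 4 were tested, with a Cdk4 exon at 0.777, 0.845 and 0.896 against 0.581, 0.746 and 0.786. The median ΔPSI was -0.00767 at 54 nt, -0.00858 at 51 nt, -0.0258 at 249 nt and -0.0452 at 252 nt.

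Gene totals offer a readout that the rule did not use. Of 2526 genes with a tested frame-preserving exon that entered the expression test, 407 were higher in L-DL KD at adjusted p under 0.05 in edgeR (16.1%, against 15.6% of all 17621 genes) and 584 were lower (23.1%, against 15.0%). The median log2 fold change was -0.03 over these genes and 0.01 over all genes. Of the 42 genes with an exon at p under 0.001, 4 were higher and 15 were lower, with a median of -0.16. The lower genes included Syt7, Kifap3, Cadps, Cbarp, R3hdm2 and the adhesion receptor gene Adgrb2, and the higher genes included Ppfia4, Cltb and Eif4g2. Neuronal markers were lower in the same libraries, with a median log2 fold change of -0.56, and their part in these counts was not tested.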

How the data were processed

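The authors made gene counts and splice junction counts from 6 paired-end RNA-seq libraries aligned to GRCm38, and the submitters' processing notes name HISAT2 2.1.0, Bowtie 1.1.2 and HTSeq 0.6.1. The deposited junction counts come from rMATS and list 3 inclusion and 3 skipping counts per event and group. The columns do not name the groups: group 1 was taken as L-DL KD because the study defines ΔPSI as L-DL KD less control, and summed junction counts and gene counts differed between groups alike (Spearman correlation 0.911 across 7216 genes, which are not replicates). The table's columns of p-values, false discovery rates and inclusion differences hold the authors' own comparison and were not used.

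Inclusion and skipping counts of the 18829 events of all types that averaged 20 or more counts a library, and 1 or more for each form, were fitted together in edgeR 4.0.16 (R 4.3.3, quasi-likelihood test) with an effect per library, an inclusion effect and its change in L-DL KD. Library sizes were summed junction counts. P-values were adjusted by the Benjamini-Hochberg method over all events. PSI was computed from the counts divided by the effective lengths of both forms. Gene counts were tested in edgeR with TMM scaling over 17621 genes that reached 10 counts in 3 or more libraries. The fits were tested on simulated data. Exon annotation and sequence came from GENCODE M21, and 3445 of 3447 tested exons matched an annotated exon. DESeq2 1.42.0, limma 3.58.1 and other filters and scalings were alternatives.

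The exons and gene lists were chosen with earlier results of these data known. Exons were named, at 1 event per exon, if they passed the adjusted threshold, were among the 8 largest rises or falls at p under 0.001 with groups apart, lay in genes assayed by RT-PCR with a mean PSI from 0.05 to 0.95, were listed cassettes matched by gene and length, had the 2 smallest p-values of a gene list, or were the deepest at a length limit. The further exons at p under 0.001 were named after their values were seen. Both N-terminal inserts of Mapt have the same length and were kept. A few named exons are not reported here.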

Additional observations from a re-analysis of the deposited data

How the results depend on the processing

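Leaving out a library or the effective lengths was tried on 58 named exons, the 27 at p under 0.001 among them. Of 406 such values, 316 kept their direction and, where there was a p-value, their side of the threshold. Another 80 were counted as having lost p under 0.001, and 10 changed sign. Values without effective lengths and those of Hnrnpa1 had no p-value, so only their PSI change was compared. Actn2 without control library 1 also had none and was counted as lost. The sign changes were in 6 exons that were not called and had overlapping groups. With 1 library left out in turn, the L-DL KD minus control PSI was -0.0619 to 0.0230 at the 54-nt exon of Cadm1 (positive without L-DL KD library 2) and -0.0924 to 0.0206 at Dlg4 (0.0206, 0.00569 and 0.000838 without control library 1 and L-DL KD libraries 1 and 2). It was -0.0365 to 0.0584 at the 105-nt exon of Git2 (negative without L-DL KD library 3), -0.0143 to 0.0323 at the 147-nt exon of Hnrnpd (negative without control library 3) and -0.00740 to 0.0142 at Mbp (negative without L-DL KD library 1). At Lrp8 it was -0.0363 to 0.0513 (-0.0194, -0.00442 and -0.0363 without control library 3 and L-DL KD libraries 2 and 3). The count of 9 events at adjusted p under 0.05 became 0 with skipped exon events alone in the fit (498 at an unadjusted p under 0.05), 5 in limma, 15 with 1 event per exon, 25 with TMM over the 12 columns and 32 in DESeq2. The common dispersion was 0.0598 over all event types and 0.115 over skipped exon events alone. The count of 45 at p under 0.001 became 8 in that fit, and 680 events had p under 0.05, a threshold added after seeing the data. It was 46 in limma, 55 with TMM and 60 in DESeq2, with 11, 41 and 38 of the 45 among them, and these causes were not tested. The share of lower events was 59.7% with TMM. The widening of the median gap between both kinds of exon was -0.00748 as a mean over exons. Leaving out 1 library in turn, by position in the list of its group, leaves fewer samples and gave 0 to 12 events at the adjusted threshold, 16 to 39 at p under 0.001, shares of 53.9 to 57.9%, gaps of -0.0267 to -0.0169 and 674 to 1222 changed genes. The adjusted count was 1, 2 and 0 without control libraries 1, 2 and 3, and 12, 1 and 4 without L-DL KD libraries 1, 2 and 3. The counts at p under 0.001 were 16, 18, 17, 39, 27 and 21 in the same order, and without control library 3 there were 516 events at p under 0.05. Of 27 called exons followed, 8 kept p under 0.001 in all 6 of these fits, the 9 of the adjusted threshold other than Ppfia4. Another 3 (Actn2, Grin1 N1 and the 225-nt exon of Mycbp2) lost it in all 6, counting the fit in which Actn2 had no p-value. For gene totals, the replicate block gave 876 changed genes against 991. The deviations of same-numbered libraries had correlations of 0.0666, 0.179 and -0.163, against -0.258 to 0.189 for libraries with different numbers. With 3 libraries per group this cannot show or exclude a pairing by number. No paired fit was made for splicing because the splicing table gives no replicate numbers. The count filters limited the tests to 3815 of 9948 events, with 1801 left out for few counts in total and 4152 for under 1 skipping count.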

Other observations

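Some genes held frame-preserving exons whose PSI differed between the groups in opposite directions, a pattern picked out after the values were seen and not tested as such. In Mycbp2 the exons are neighbours in the transcript (exons 53 and 54 of Mycbp2-201), and both PSI ranges were apart between the groups, with a gene total of 412 CPM in control and 387 in L-DL KD. Epb41l3 had a 75-nt exon with higher and exons of 123 nt and 117 nt with lower PSI in L-DL KD, beside a gene total of 173 and 92.6 CPM. The median distance of a middle-range frame-preserving exon from the mean of its own group was 0.0543 in control and 0.0591 in L-DL KD libraries (means of 3), with 0.0540 and 0.0570 for frame-shifting exons.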
